A study of Rattus norvegicus with 4 samples.

Results

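Laminins are the cross-shaped glycoproteins that build the basement membrane, the thin sheet of matrix under epithelia and around blood vessels, muscle and nerve. Single-cell RNA levels of 9 laminin chain genes (Lama2, Lama3, Lama4, Lama5, Lamb1, Lamb2, Lamb3, Lamc1 and Lamc3) were described in keratinocytes, fibroblasts, blood endothelial cells and mural cells. The genes were taken by symbol from the 30560 genes of the count matrices, where each had its own row. Lama1, another laminin gene matched by symbol, enters where a trimer needs it. The study set out to compare which cells make up subcutaneous fascia of the abdomen and skin. Its 4 droplet libraries came from wild-type rats, 2 from subcutaneous fascia and 2 from skin, digested with collagenase and elastase, depleted of dead cells and sequenced from the 3′ end of the transcripts. No treatment was labelled, and strain, age and sex are not given in the sources used here. Whether the 2 libraries of a tissue came from separate animals is not given in the sources used here, so the p-values measure the spread between libraries, which may be technical.

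A laminin is secreted as a heterotrimer of 1 alpha, 1 beta and 1 gamma chain wound into a coiled coil, and its name lists the chain numbers in that order. The alpha chain carries the domains that integrins and dystroglycan bind, so it sets which cells adhere, while the beta and gamma chains are needed for assembly, export and linkage to nidogen. In skin, a laminin with the alpha 3 and beta 3 chains anchors basal keratinocytes to the dermis through hemidesmosomes. Laminins with the alpha 4 or alpha 5 chain form the basement membrane of blood vessels, and laminins with the alpha 2 chain are best known around skeletal muscle fibres and Schwann cells.

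Cells were assigned to a class by counting its marker genes, none of which is a laminin gene. A cell needed molecules of at least 3 markers of a list and at least 2 times as many as of any other list. Among the kept cells of fascia replicates 1 and 2, 2766 and 772 were fibroblasts, 458 and 855 blood endothelial cells, and 414 and 1054 mural cells, the pericytes and smooth muscle cells of vessel walls. In skin replicates 1 and 2 there were 459 and 605 fibroblasts, 187 and 125 blood endothelial cells, and 47 and 206 mural cells. Keratinocytes were a skin class, with 5678 and 9479 cells in the skin libraries against 0 and 5 in the fascia libraries, and fascia values of this class are not given. Of the markers left out of the gates, 1 is given for each of these classes, with levels in other classes for Tp63 alone. Tp63, a basal epithelial transcription factor, stood at 165 and 324 CPM (a gene's UMIs scaled to a common total of all UMIs of its class and library) in keratinocytes of skin replicates 1 and 2. In the other classes Tp63 reached at most 10.99 CPM. Erg, an endothelial transcription factor, stood at 386 and 302 CPM in blood endothelial cells of fascia and at 426 and 316 CPM in those of skin. Mcam, a surface protein of mural cells, stood at 386 and 364 CPM in mural cells of fascia and at 179 and 147 CPM in those of skin. Mfap5, a microfibril gene, stood at 3044 and 2327 CPM in fibroblasts of fascia and at 535 and 809 CPM in those of skin. Kept cells held a median of 12680 and 10330 UMIs (unique molecular identifiers, each tagging 1 captured molecule) in fascia and of 8859 and 2457 in skin, so skin replicate 2 was the shallowest library. Keratinocyte markers were seen outside keratinocytes in skin. Summed over 9 genes they came to 252 and 561 CPM in skin fibroblasts and 203 and 292 CPM in skin endothelial cells. This compares with 10.0 and 20.6 CPM in fascia fibroblasts and 18.0 and 14.3 CPM in fascia endothelial cells. In keratinocytes themselves they summed to 27990 and 33120 CPM. Between 17 and 45 cell barcodes were shared by any pair of libraries, and the number that chance would give is not stated here.

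Lama3 and Lamb3, the alpha and beta chains of the laminin that hemidesmosomes bind, were at their highest in keratinocytes. Lama3 stood at 102 and 171 CPM in keratinocytes of skin replicates 1 and 2. Lamb3 stood at 135 and 123 CPM in the same cells. Within the skin libraries, Lamb3 was higher in keratinocytes than in fibroblasts by 6.43 on the log2 scale (SE 0.44, adjusted p = 9.51e-05), with skin fibroblasts at 1.13 and 1.70 CPM. Keratinocytes exceeded blood endothelial cells in Lamb3 by 6.99 (SE 0.54, adjusted p = 0.000158) and mural cells by 6.31 (SE 0.61, adjusted p = 0.000437). Lama3 was less exclusive. Mural cells of fascia held 29.5 and 42.5 CPM, against 11.9 and 11.9 CPM in mural cells of skin, and skin fibroblasts held 14.7 and 18.7 CPM. Keratinocytes still exceeded fibroblasts in Lama3 by 2.87 (SE 0.26, adjusted p = 0.000195), mural cells by 3.59 (SE 0.34, adjusted p = 0.000408) and blood endothelial cells by 6.19 (SE 0.38, adjusted p = 0.000114) on the log2 scale. In the mural cells of fascia Lamb3 was at 0 and 0.103 CPM, so there Lama3 stood almost without Lamb3. Counts from the 3′ end do not separate the long and short forms of the alpha 3 chain.

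The stretch of DNA around the start of Lama3 is printed because it carries an uncommon cluster of 1 short motif, while that of Lamb3, its partner in keratinocytes, carries none. The sequences are from RefSeq on build GRCr8, 250 bases before the start to 50 after it, in lower case with each copy of TGANTCA in capitals. This is the consensus for AP-1, a dimer of Jun and Fos proteins, and it equals its own reverse complement, so both strands are covered. The Lama3 window lies on the plus strand at chr18:3952517-3952816 and the Lamb3 window on the plus strand at chr13:107362303-107362602.
Lama3: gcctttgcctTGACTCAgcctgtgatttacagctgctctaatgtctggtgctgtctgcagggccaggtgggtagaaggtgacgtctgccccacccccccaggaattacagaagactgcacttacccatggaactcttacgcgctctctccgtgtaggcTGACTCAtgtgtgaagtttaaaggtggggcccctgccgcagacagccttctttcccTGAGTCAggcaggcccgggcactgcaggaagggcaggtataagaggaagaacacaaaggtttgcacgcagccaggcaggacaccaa
Lamb3: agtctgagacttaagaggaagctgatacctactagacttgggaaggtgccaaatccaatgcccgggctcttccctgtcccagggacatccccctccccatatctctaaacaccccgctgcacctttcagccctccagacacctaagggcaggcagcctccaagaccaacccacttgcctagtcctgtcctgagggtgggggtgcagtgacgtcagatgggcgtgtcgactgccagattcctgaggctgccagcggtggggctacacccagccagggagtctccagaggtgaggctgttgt
The Lama3 window holds 3 copies, which begin at positions -240, -92 and -36 from the start. The other laminin windows searched, which are those of Lama1, Lama2, Lama4, Lama5, Lamb1, Lamb3, Lamc1 and Lamc3, hold 0 copies. Of 33469 RefSeq windows of the same 300 bases, 7.33% hold at least 1 copy and 5 windows hold at least 3. These are letters in a window and no measure of binding.

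**Figure D1:**
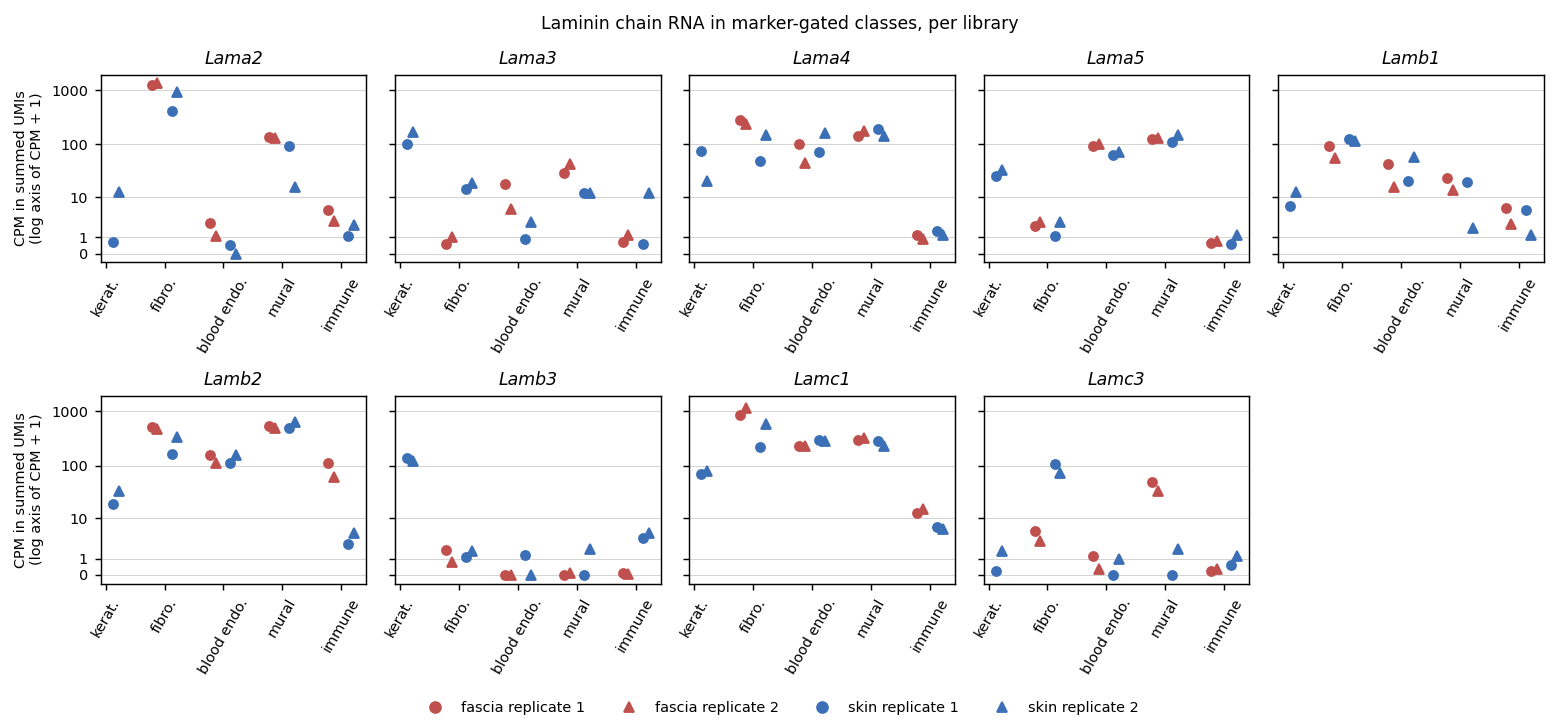
Level of each laminin chain gene in 5 marker-gated classes, 1 point per library, in CPM of the class's summed UMIs on a log axis of CPM + 1. Lama3 and Lamb3 peak in keratinocytes, Lama2 in fibroblasts, Lamc1 in fascia fibroblasts, and Lama5 in blood endothelial and mural cells.

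Lama2, the alpha chain missing in merosin-deficient muscular dystrophy, was by far the leading alpha chain of fibroblasts. It stood at 1214 and 1341 CPM in fibroblasts of fascia and at 416 and 909 CPM in fibroblasts of skin. Its share of all alpha chain UMIs in these cells was 81.1% and 84.5% in fascia, against 86.3% and 84.0% in skin. In blood endothelial cells Lama2 was almost undetected, at 2.70 and 1.10 CPM in fascia and at 0.453 and 0 CPM in skin, where a count of 0 in the second library allows up to 2.88 CPM. Over the 4 libraries it was lower in blood endothelial cells than in fibroblasts by a log2 change of -9.91 (SE 0.69, adjusted p = 6.06e-06). Mural cells lay between them, with 138 and 133 CPM in fascia and 95.5 and 15.9 CPM in skin, and their difference from fibroblasts was -3.74 (SE 0.51, adjusted p = 0.000497). The 2 skin mural sums differed more from each other than the fascia sums did, and skin replicate 1 rests on 47 cells. Fibroblast markers summed to 996 and 899 CPM in fascia mural cells, against 330 and 292 CPM in skin mural cells and 42860 and 60490 CPM in fascia fibroblasts. Their part in the mural Lama2 level was not tested.

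Lamc1, the gamma chain of most laminins, was present in every stromal class and was at its highest in fibroblasts of fascia. There it stood at 861 and 1153 CPM, against 220.7 and 569 CPM in fibroblasts of skin. Blood endothelial cells held 232 and 228 CPM in fascia and 302 and 288 CPM in skin. Mural cells held 300.5 and 326 CPM in fascia and 282 and 225 CPM in skin, overlapping with blood endothelial cells. Over the 4 libraries Lamc1 was lower in blood endothelial cells than in fibroblasts by a log2 change of -1.31 (SE 0.42, adjusted p = 0.0333) and lower in mural cells than in fibroblasts by -1.40 (SE 0.41, adjusted p = 0.0253). Neither call is firm, since the first was lost without skin replicate 2 (adjusted p = 0.0803), fascia replicate 1 (0.172) or fascia replicate 2 (0.211), and the other without the same libraries (0.0743, 0.115 and 0.134). Skin replicate 1 went the other way, with 302 CPM in blood endothelial cells and 282 CPM in mural cells, against 220.7 CPM in fibroblasts. Keratinocytes held 69.0 and 80.5 CPM.

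Lama4 and Lama5, the alpha chains of vessel walls, had different patterns. Lama5, which binds integrins strongly and is linked to barrier tightness, was at 94.2 and 101 CPM in blood endothelial cells of fascia and at 63.8 and 71.0 CPM in those of skin. Mural cells held 126 and 130 CPM of Lama5 in fascia and 111.4 and 149 CPM in skin. Fibroblasts held 2.19 and 2.80 CPM in fascia and 1.13 and 2.84 CPM in skin, so no fibroblast sum came near a vascular one. The fitted log2 difference was 5.19 for blood endothelial cells over fibroblasts (SE 0.24, adjusted p = 1.05e-06) and 5.69 for mural cells over fibroblasts (SE 0.25, adjusted p = 2.83e-06). Keratinocytes, which also make this chain, lay between at 26.0 and 33.0 CPM, above skin fibroblasts by 3.86 (SE 0.34, adjusted p = 0.000179) and below skin blood endothelial cells by a log2 change of -1.36 (SE 0.26, adjusted p = 0.00599). Lama4 was spread over all stromal classes. It stood at 280 and 242 CPM in fibroblasts of fascia, against 50.0 and 152 CPM in fibroblasts of skin. Blood endothelial cells held 102 and 45.2 CPM in fascia and 71.1 and 163 CPM in skin, and mural cells held 143 and 178 CPM in fascia and 195 and 141 CPM in skin. No contrast between classes was called for Lama4. In keratinocytes it reached 75.9 and 20.2 CPM. The 29 lymphatic endothelial cells of skin replicate 2, the other lymphatic groups being smaller than 20 cells, held 203 CPM of Lama4 and 407 CPM of Lamc1, with 0 UMIs of Lama5, which allows up to 16.5 CPM.

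Of the beta chains, Lamb2 prevailed over Lamb1 in every stromal sum. Lamb2 stood at 529.5 and 485 CPM in mural cells of fascia and at 485 and 639 CPM in those of skin. Fibroblasts held 516 and 476 CPM in fascia and 161 and 338 CPM in skin. Blood endothelial cells held 154.5 and 113.5 CPM in fascia and 110.4 and 157 CPM in skin, below mural cells in each library. Mural cells exceeded blood endothelial cells in Lamb2 by 1.87 on the log2 scale (SE 0.30, adjusted p = 0.001004), and blood endothelial cells lay below fibroblasts by a log2 change of -1.46 (SE 0.30, adjusted p = 0.0039). Lamb1 stood at 92.2 and 55.1 CPM in fibroblasts of fascia and at 126.5 and 117 CPM in those of skin. In blood endothelial cells it was at 42.9 and 15.7 CPM in fascia and at 20.8 and 59.5 CPM in skin, so that the highest endothelial sum overlapped with the lowest fibroblast sum. In mural cells it was at 23.4 and 13.8 CPM in fascia and at 19.9 and 1.99 CPM in skin, the last from 2 UMIs (exact Poisson 95% interval 0.241 to 7.18 CPM, for counting error alone). Mural cells lay below fibroblasts in Lamb1 by -2.79 (SE 0.52, adjusted p = 0.00278) and blood endothelial cells by -1.63 (SE 0.47, adjusted p = 0.0217). The endothelial call was lost without skin replicate 1 (adjusted p = 0.0913), fascia replicate 1 (0.0637) or fascia replicate 2 (0.104). Lamb1 held 15.1% and 10.4% of the beta chain UMIs of fascia fibroblasts, against 43.9% and 25.7% in skin fibroblasts.

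Lamc3, a gamma chain known from vessels, brain and nerve, was held by different classes in the tissues. In fibroblasts it stood at 5.47 and 3.24 CPM in fascia and at 109 and 72.9 CPM in skin. In mural cells it stood at 49.3 and 34.1 CPM in fascia, and at 0 and 1.99 CPM in skin, where the 0 allows up to 11.9 CPM. Blood endothelial cells stayed at or below 1.26 CPM in all 4 libraries and keratinocytes at 0.208 and 1.78 CPM. With each cell thinned to 2000 UMIs, 1.29% and 0.702% of fascia fibroblasts and 19.4% and 10.5% of skin fibroblasts held a Lamc3 UMI. Immune cells, which should lack the gene, gave 0.0923% and 0.0854% in fascia and 0 cells in skin. Unthinned, the shares were 3.33% and 3.11% in fascia fibroblasts, against 56.9% and 21.7% in skin fibroblasts. The tissues go opposite ways, and the mural-fibroblast difference over both tissues was -0.01 and not called.

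In counts over the 9 chains, blood endothelial cells differed from fibroblasts in 6 of 8 chains tested, 1 higher (Lama5) and 5 lower (Lama2, Lamc3, Lamb1, Lamb2 and Lamc1), where 38.8% of all genes tested were called, 18% higher and 20.8% lower. The same count was 4 for each library left out, where 2819 to 4715 of all genes were called. The Lamc3 call (log2 change -5.51, SE 1.68, adjusted p = 0.0278) was lost without skin replicate 1 (0.0993) or skin replicate 2 (0.0694). Mural cells differed from fibroblasts in 4 of 8 (Lama5 higher, Lama2, Lamb1 and Lamc1 lower) against 35.9% of all genes, 16% higher and 19.9% lower. Mural cells exceeded blood endothelial cells in 3 of 8 (Lama2 by 6.16, Lamc3 by 5.51 and Lamb2 by 1.87 on the log2 scale), where 37.6% of all genes were called, 18.7% higher and 18.8% lower. The Lamc3 call was lost without fascia replicate 1 (adjusted p = 0.0753) or fascia replicate 2 (0.131). This Lamc3 difference is fitted over both tissues but seen in fascia alone. In skin, mural cells held 0 and 2 UMIs of Lamc3 and blood endothelial cells 0 and 1. Keratinocytes differed from skin fibroblasts in 8 of 9 chains against 39% of all genes (18.5% higher, 20.5% lower). Of the chains 3 were higher (Lamb3, Lama5 and Lama3) and 5 lower (Lama2, Lamc3, Lamb1, Lamb2 and Lamc1). The lower ones ran from a log2 change of -7.12 for Lama2 (SE 1.35, adjusted p = 0.00479) to -2.44 for Lamc1 (SE 0.38, adjusted p = 0.00197). Keratinocytes differed from skin blood endothelial cells in 6 of 9 (33.4% of all genes, 17.3% higher and 16.2% lower). They differed from skin mural cells in 5 of 9 (32.5% of all genes, 18.1% higher and 14.4% lower). Lamb3 and Lama3 were the higher ones in both. Classes of the same library share its depth and free RNA.

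Between the tissues, few chains passed the test within a class. In fibroblasts 2 of 9 chains were called, against 20.7% of 12791 genes tested (7.65% higher, 13.1% lower), and both were lower in fascia: Lama3 by a log2 change of -4.76 (SE 0.42, adjusted p = 0.00629) and Lamc3 by -4.58 (SE 0.41, adjusted p = 0.0064). For Lama3 the values were 0.517 and 1.05 CPM in fascia fibroblasts, against 14.7 and 18.7 CPM in skin fibroblasts, so the tissues did not overlap. Lamb3, which keratinocytes hold at about the level of Lama3, was at 1.13 and 1.70 CPM in the same skin fibroblasts, and all 9 keratinocyte markers had UMIs there. Immune cells of skin held 0.55 and 12.1 CPM of Lama3. The chains of the laminins of fibroblasts had higher CPM in fascia (Lama2, Lama4, Lamb2 and Lamc1), with fitted log2 changes of 0.77 (SE 0.36), 1.21 (SE 0.46), 0.81 (SE 0.33) and 1.18 (SE 0.44), and adjusted p of 0.18, 0.124, 0.137 and 0.115. Skin replicate 2 lay nearer to fascia than skin replicate 1 did in all 4 of these. Without skin replicate 2, their log2 changes ran from 1.29 to 2.05. That fit has 1 skin library, so its spread comes from the fascia libraries alone and the skin library is assumed to vary like them. Lamb1 went the other way at -0.96 (SE 0.29, adjusted p = 0.0743), and Lama5 and Lamb3 stayed below 3 CPM in all fibroblast sums. The median log2 change of the chains tested was 0.18, beside 0.05 over all genes. With library totals alone the median over all genes was 0.26, and 1277 genes were called higher and 1350 lower, against 979 higher and 1675 lower with TMM (trimmed mean of M-values) factors.

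In blood endothelial cells 1 of 6 chains tested was called, against 22.5% of 11096 genes (8.91% higher, 13.6% lower). It was Lamc1, lower in fascia by a log2 change of -0.80 (SE 0.23, adjusted p = 0.0412). Its 2 fascia values lay below both skin values. The call was lost without skin replicate 1 (-0.60, adjusted p = 0.111), fascia replicate 1 (-0.76, 0.291) or fascia replicate 2 (-0.81, 0.241). It was also lost with a stricter gate (-0.71, 0.0581), a looser gate (-0.73, 0.0743) and a replicate block (-0.78, 0.0934). Library scaling bears on these fits. With library totals alone in place of TMM factors, the median log2 change of all genes was 0.51, against 0.07, and the Lamc1 change to -0.36 with an adjusted p of 0.203. Of all genes, 2415 were then called higher and 770 lower, against 989 higher and 1507 lower with TMM factors. Lama3, at 18.2 and 5.75 CPM in fascia and 0.905 and 2.88 CPM in skin, had a log2 change of 2.39 (SE 0.88, adjusted p = 0.0826), and Lama4 one of -1.05 (SE 0.41, adjusted p = 0.0955). The median over the 6 chains was -0.60.

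In mural cells 1 of 8 chains tested was called, against 14.1% of 10850 genes (4.51% higher, 9.6% lower). It was Lamc3, higher in fascia by 4.20 on the log2 scale (SE 0.71, adjusted p = 0.00344), the opposite direction from fibroblasts. The make-up of the mural class differed between the tissues at the same time. Cells with more pericyte than smooth muscle markers numbered 109 and 255 in fascia, against 8 and 3 in skin. Lamc3 stood at 103 and 80.2 CPM in the pericyte-marker cells of fascia. In the cells with more smooth muscle markers it stood at 11.8 and 7.09 CPM in fascia and at 0 and 0 CPM in skin, where the zeros allow up to 16.5 and 3.17 CPM. The part of make-up in the whole-class difference was not tested. With a stricter gate the change was 3.19 and its adjusted p 0.0865. Lama2 had a log2 change of 1.42 (SE 0.51, adjusted p = 0.0942) and Lama3 of 1.14 (SE 0.41, adjusted p = 0.0944), while Lama5 had -0.55 (SE 0.23, adjusted p = 0.144) and Lamb2 -0.62 (SE 0.26, adjusted p = 0.141). With library totals alone, Lama2 (1.88) and Lama3 (1.62) were called too, at a median log2 change over all genes of 0.56, against 0.09. In that fit 1944 genes were called higher and 616 lower, against 489 higher and 1042 lower with TMM factors. The median over the 8 chains was 0.51 with TMM factors. Without skin replicate 1, the library of 47 mural cells, the log2 change was 2.60 for Lama2 and 2.68 for Lamb1. It was -0.71 for Lama5 and -0.82 for Lamb2. That fit again takes its spread from the fascia libraries alone. In these sums over a class, fewer cells of a kind and less RNA per cell cannot be told apart.

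**Figure D2:**
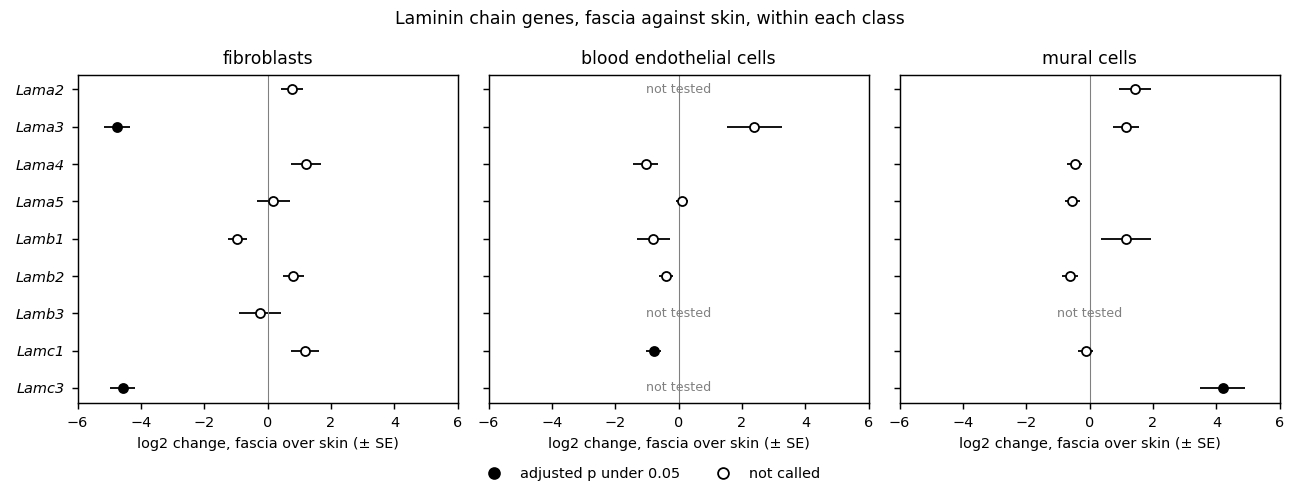
Fitted log2 change of each chain, fascia over skin, within fibroblasts, blood endothelial cells and mural cells, with bars of 1 SE and filled points at an adjusted p under 0.05. Lama3 and Lamc3 fell in fascia fibroblasts, Lamc1 fell in fascia endothelial cells and Lamc3 rose in fascia mural cells.

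A direct test of whether the fascia-skin difference is unequal among fibroblasts, blood endothelial cells and mural cells called 5 of 8 chains, against 14.7% of all genes. Lamc3 had the smallest adjusted p (3.44e-05), since its difference lay 8.75 higher in mural cells than in fibroblasts on the log2 scale. For Lama3 (adjusted p = 0.000609) the difference lay 7.29 higher in blood endothelial cells and 6.20 higher in mural cells than in fibroblasts. Lama4 (adjusted p = 0.0269), Lamb2 (0.0203) and Lamc1 (0.0336) had differences that lay lower in both vascular classes than in fibroblasts, by -2.29, -1.22 and -1.95 in blood endothelial cells and by -1.63, -1.33 and -1.22 in mural cells. Lamc3 and Lama3 were called with every library left out, while Lama4, Lamb2 and Lamc1 were not. Lama4 was lost without skin replicate 1 (adjusted p = 0.106) or skin replicate 2 (0.0562). Lamb2 was lost without skin replicate 1 (0.0642), fascia replicate 1 (0.111) or fascia replicate 2 (0.172), and Lamc1 without skin replicate 1 (0.0788) or fascia replicate 2 (0.0629). Lama2 (adjusted p = 0.781), Lama5 (0.388) and Lamb1 (0.198) were not called. Lamb1 was called with no filter on low counts (adjusted p = 0.001236) and in some fits with a library left out.

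Which trimers the RNA of a class could supply was read from the levels. A chain counted as present in a class of a tissue at 20 CPM or more in both libraries and at 3 times or more the level in immune cells of the same library, and 13 known trimers were considered. Fibroblasts of fascia met this for laminin-211, laminin-221, laminin-411 and laminin-421. Fibroblasts of skin met it for the same trimers and also for laminin-213 and laminin-423, the ones with the gamma 3 chain. Mural cells of fascia met it for laminin-221, laminin-321, laminin-421, laminin-423, laminin-521 and laminin-523. Mural cells of skin met it for laminin-421 and laminin-521. Mural cells with more pericyte markers numbered 109 and 255 in fascia, against 8 and 3 in skin. In fascia, Lama2 and Lamc3 were higher in these cells, and Lama5 in cells with more smooth muscle markers. Laminin-523 thus joins chains that were highest in different groups of cells. The part of make-up in the mural trimer lists was not tested. Blood endothelial cells of skin met it for laminin-411, laminin-421, laminin-511 and laminin-521. For blood endothelial cells of fascia the count was 0, although Lama4, Lama5 and Lamc1 were present: Lamb1 fell to 15.7 CPM in replicate 2, and Lamb2, at 154.5 and 113.5 CPM, was under 3 times the 111.4 and 60.7 CPM of immune cells. With no criterion on immune cells, laminin-421 and laminin-521 were met there. RNA does not show that a trimer was assembled or secreted.

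Whether a single cell held all 3 chains was read after thinning cells to 2000 UMIs, which left out cells with fewer. All chains of laminin-221 were seen in 40.9% and 43.3% of fascia fibroblasts (exact binomial 95% intervals 39.1 to 42.8 and 39.6 to 47.0), against 4.24% and 21.6% of skin fibroblasts (2.57 to 6.54 and 18.0 to 25.6). The skin libraries differed from each other more than the fascia libraries did, and neither reached the fascia shares. Laminin-421 was complete in 20.7% and 20.9% of fascia fibroblasts, against 0.893% and 10.7% of skin fibroblasts. Laminin-213 went the other way, with 0.332% and 0.281% in fascia, against 4.02% and 1.71% in skin. Laminin-521 was complete in 3.65% and 1.08% of blood endothelial cells of fascia, against 2.16% and 0.893% of those of skin, with overlapping intervals. In mural cells laminin-521 was complete in 5.87% and 8.19% in fascia, against 4.44% and 6.63% in skin, and laminin-421 in 9.29% and 8.38%, against 11.1% and 4.08%. The trimers with the gamma 3 chain were rarely complete in fascia mural cells. Laminin-423 was complete in 1.22% and 0.963% and laminin-523 in 0.2445% and 0.289%. No immune cell of any library held all chains of any trimer at this depth. Unthinned, the mean share for laminin-221 was 90.4% in fascia fibroblasts, against 48.7% in skin fibroblasts. The shares depend on depth, and no order between trimers of unlike level is read from them. The intervals cover counting error only.

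**Figure D3:**
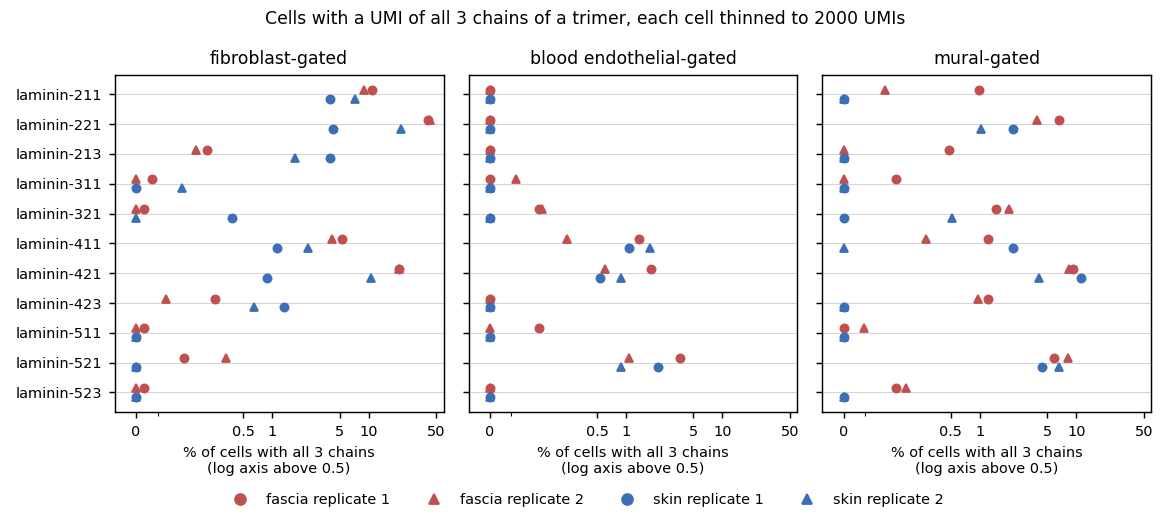
Percent of cells, thinned to 2000 UMIs each, with a UMI of all 3 chains of a trimer, by class, 1 point per library on an axis that is logarithmic above 0.5. Laminin-221 and laminin-421 lie furthest right in fascia fibroblasts, and in mural cells the shares of laminin-421 and laminin-521 overlap between the tissues.

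Within keratinocytes most chains were lower in cells with more suprabasal keratin, among them Lama3, Lamb3, Lama5, Lamb1 and Lamc1. Cells were ranged by the share of Krt1 and Krt10, keratins of differentiating layers, among their Krt1, Krt10, Krt5 and Krt15 UMIs, the last pair being keratins of the basal layer. Below a share of 0.2 Lamb3 stood at 158 and 134 CPM in skin replicates 1 and 2, between 0.2 and 0.8 at 51.4 and 65.7 CPM, and above 0.8 at 9.46 and 18.3 CPM. Lama3 ran from 113 and 179 CPM through 45.9 and 117 CPM to 23.7 and 42.1 CPM, and Lama5 from 30.1 and 36.0 CPM through 7.08 and 13.7 CPM to 1.27 and 3.18 CPM. Both libraries gave the same order for these 3 genes. Lamc1 ran from 74.6 and 82.6 CPM through 37.9 and 59.3 CPM to 16.6 and 21.5 CPM, and Lamb1 from 7.23 and 13.01 CPM through 2.06 and 8.61 CPM to 1.09 and 0.795 CPM. Lama4 stood at 88.0 and 19.9 CPM, then at 44.5 and 28.6 CPM, and in the highest range at 0.728 and 0.795 CPM, from 4 and 1 UMIs. Lamb2 stood at 20.9 and 32.8 CPM, then 14.8 and 38.8 CPM, then 12.01 and 23.1 CPM. The ranges are slices of a score and not cell types: 117 and 583 cells lay within 0.05 of a limit, and 346 and 653 cells with fewer than 10 keratin UMIs were left out.

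In fascia mural cells, alpha and beta chains and Lamc3 differed between cells with more pericyte markers and cells with more smooth muscle markers. Lama5 stood at 65.5 and 49.6 CPM in the pericyte-marker cells of replicates 1 and 2, against 170.2 and 179 CPM in the smooth-muscle-marker cells. Lama2 went the other way, with 204 and 260.2 CPM, against 79.7 and 61.2 CPM. Lamb1 had 42.0 and 28.3 CPM in pericyte-marker cells, against 10.8 and 5.18 CPM, and Lamb2 had 399.6 and 337 CPM, against 642.5 and 585 CPM. Lamc1 was nearly even, with 294 and 323 CPM, against 291 and 313.5 CPM. In skin, with fewer than 20 pericyte-marker cells a library, the smooth-muscle-marker cells held 132 and 148 CPM of Lama5. Of Lama2 they held 15.8 CPM in replicate 2, and in replicate 1 they had 2 UMIs, below the limit that a count of 0 allows. Cells with equal numbers of both kinds of marker, 87 and 200 in fascia and 7 and 11 in skin, were left out.

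**Figure D4:**
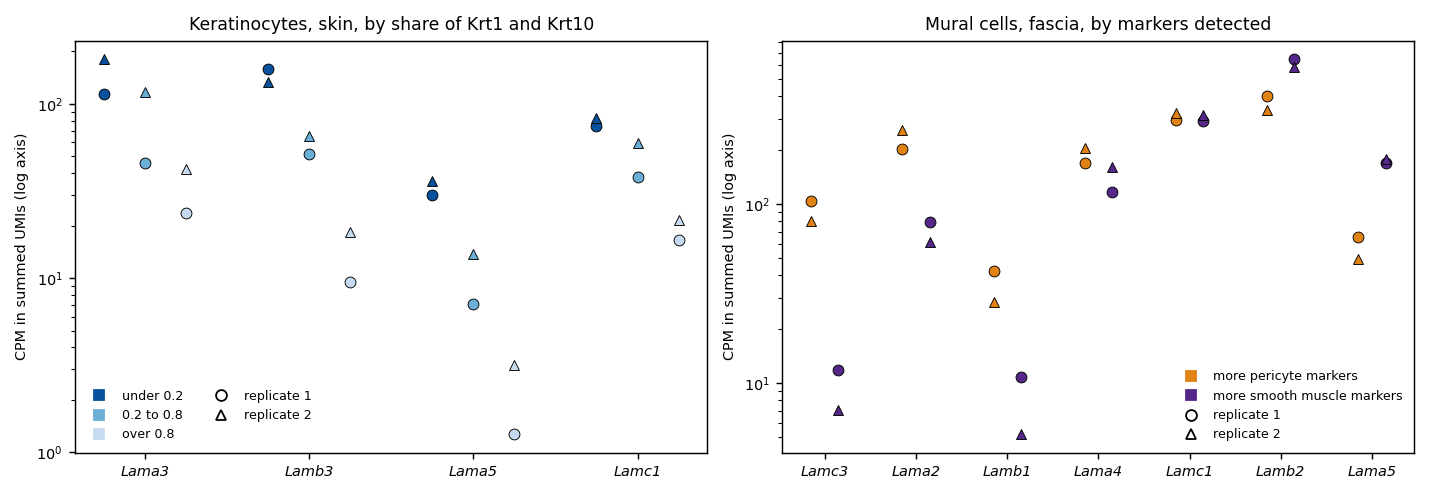
Laminin chain levels in CPM on a log axis, by library, in skin keratinocytes ranged by their share of Krt1 and Krt10 (left) and in fascia mural cells with more pericyte or more smooth muscle markers (right). Each of the 4 chains plotted is lower in each next keratinocyte range in both libraries, and Lamc3 and Lama5 separate the mural groups in opposite directions.

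The partners of laminin in the basement membrane were counted from lists, 16 network genes, 8 receptor genes and 7 hemidesmosome and anchoring genes. In fibroblasts 4 of 15 network genes tested were called between the tissues, 1 higher and 3 lower in fascia, where 20.7% of all genes were called. The largest changes were Egfl6 (-5.48), an integrin-binding matrix protein, Col15a1 (-3.28), a linking collagen, and Col4a1 (-1.35), the collagen of the basement membrane mesh. Col15a1 stood at 42.1 and 71.3 CPM in fascia fibroblasts, against 542 and 392 CPM in skin fibroblasts. Of 7 receptor genes tested 1 was called, Itgb1, the common integrin beta chain, at -0.93. All 3 hemidesmosome genes called were lower in fascia fibroblasts. Col7a1, the anchoring fibril collagen, stood at 0.752 and 0.526 CPM in fascia, against 37.2 and 13.9 CPM in skin, Col17a1 at 1.86 and 2.80 CPM, against 12.2 and 29.5 CPM, and the third was Plec (-1.54). Col17a1 is a keratinocyte gene, at 799 and 1010.0 CPM in keratinocytes, and the keratinocyte markers given above moved with it. In blood endothelial cells 6 of 11 network genes tested were called, 2 higher and 4 lower in fascia, against 22.5% of all genes. They include Ntn4, a netrin that binds laminin, at 14.1 and 5.20 CPM in fascia, against 0 and 0 CPM in skin, and Nid2 (-1.79) and Col4a1 (-1.55), which were lower. Col4a1 stood at 345 and 229 CPM in fascia, against 430 and 850 CPM in skin. Itgb1 (-1.13) was the receptor gene called of 7 tested and Col17a1 the hemidesmosome gene called of 6. Col17a1 stood at 0 and 0.0913 CPM in fascia endothelial cells, against 7.70 and 15.4 CPM in skin endothelial cells, where the keratinocyte markers were higher too, as given above. In mural cells 5 of 12 network genes tested were called, 4 higher and 1 lower in fascia, against 14.1% of all genes. The largest were Npnt (3.31), a ligand of integrins, Sparc (1.57), which binds collagen IV, and Tinagl1 (1.31), a vascular matrix protein. Tinagl1 stood at 1197 and 1100 CPM in fascia mural cells, against 227 and 427 CPM in skin mural cells. Of 8 receptor genes Itga3 (-2.22) and Itgb1 (-0.86) were called lower, and of 7 hemidesmosome genes Col17a1 (-3.01), at 1.45 and 1.13 CPM in fascia, against 11.9 and 5.96 CPM in skin. Keratinocyte markers summed to 7.25 and 18.3 CPM in fascia mural cells, against 266.5 and 274 CPM in skin mural cells. Their part in the Col17a1 differences was not tested. The median log2 change was -0.75 over the network genes of fibroblasts, -0.32 over those of blood endothelial cells and 0.17 over those of mural cells, beside 0.05, 0.07 and 0.09 over all genes tested.

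The receptors on the cell side differed by class. Bcam, the Lutheran receptor for laminin alpha 5, stood at 1158 and 1066 CPM in mural cells of fascia and 537 and 748 CPM in those of skin. Blood endothelial cells held 447 and 380.0 CPM of it in fascia and 214 and 251.5 CPM in skin, and fibroblasts no more than 8.50 CPM. It was higher in blood endothelial cells than in fibroblasts by 5.81 (SE 0.29, adjusted p = 1.29e-06) and higher in mural cells by 7.10 (SE 0.31, adjusted p = 2.83e-06) on the log2 scale. Itgb4, the partner of Itga6 in the hemidesmosome integrin, stood at 271 and 331 CPM in blood endothelial cells of fascia and 157 and 214 CPM in those of skin, and at 212 and 226 CPM in keratinocytes. In mural cells it was at 5.80 and 6.25 CPM in fascia and 15.9 and 4.97 CPM in skin, below blood endothelial cells by a log2 change of -5.57 (SE 0.78, adjusted p = 0.000495). Of 8 receptor genes, 5 were higher and 1 lower in blood endothelial cells than in fibroblasts, where 38.8% of all genes were called. In mural cells 6 were higher than in fibroblasts, where 35.9% of all genes were called. In keratinocytes 4 were higher and 1 lower than in skin fibroblasts, where 39% of all genes were called.

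The genes most like each chain in pattern were found from the correlation of log2(CPM + 1) over 19 sums of class and library. Sums of the same library share its depth and free RNA, so the values are descriptions. Lama2 was most like Col6a1 (Pearson r = 0.986), Col6a2 (0.978) and Cd248 (0.970). Lama4 was most like Lamc1 (0.951), another of the chains described here, and Lamc1 most like Mxra7 (0.965), Pam and Nid1 (0.958 each), the last being nidogen, which binds the gamma 1 chain. Lama5 was most like Fabp4 (0.946), Bcam (0.931) and Cd200 (0.920). Lamb3 was most like Clca5 (0.953), Calml3 (0.949) and Krt10 (0.935). These likenesses are between classes, and Krt10 is itself a marker of the keratinocyte gate. Within keratinocytes Lamb3 was lower where the share of Krt1 and Krt10 was higher. Lama3 (Clpx, 0.899) and Lamc3 (Nr1d2, 0.827) had looser likenesses, as did Lamb1 (Pcdhga7, 0.912) and Lamb2 (Cfl2, 0.927).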

How the data were processed

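The files are 10x matrices of UMI counts per gene and cell, deposited by the authors without normalization. Per the submitters' processing notes they come from Cell Ranger 6.0.1 with STAR on build mRatBN7.2, while the deposited matrix headers name Cell Ranger 7.0.0. A cell was retained from 500 detected genes upward if mitochondrial UMIs made up no more than 20%. Doublets were removed with Scrublet, run in Scanpy 1.11.5. Scrublet marked 210 and 188 cells in fascia, but 0 and 1 in skin. There the 445 and 2163 cells of highest doublet score were removed, at a rate of 0.8% per 1000 cells. Kept cells numbered 6602 and 6820 in fascia and 7015 and 14279 in skin.

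UMIs were summed per class and library and tested with edgeR 4.0.16 (quasi-likelihood test, TMM factors, filterByExpr, Benjamini-Hochberg adjustment over all genes), at an adjusted p under 0.05. The contrasts between classes and the test of unequal differences carry the library as a block. Each SE is the absolute log2 change divided by the square root of the F statistic of the edgeR test. It is approximate and not usable where the change is very small. DESeq2 1.42.0 was an alternative. The fits were tested on simulated data. Between tissues, 22%, 28% and 37% of 2-fold changes were found in fibroblasts, blood endothelial cells and mural cells. Of 4-fold changes 83% were found in each. The test of unequal differences found 14% of 2-fold and 70% of 4-fold changes. A chain that was not called may thus still differ by 2-fold. Intervals are exact at 95% and, like the limits for a count of 0 (3 counts), cover counting error only. Leaving out each library was not possible for keratinocyte comparisons, which rest on 2 libraries.

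The chains, marker lists, partner lists and trimers were chosen with earlier results of these data known. Genes are named by these lists, partner genes by the largest changes called, and similar genes by the highest correlation among genes of at least 20 CPM on average. Hspg2, Col4a4, Col4a5, Krt14, Robo4, Flt1, Cldn5 and Higd1b were not analysed here, and trimers of keratinocytes are not reported here.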

Additional observations from a re-analysis of the deposited data

Results flagged for a closer look

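The fascia-skin difference was unequal among fibroblasts, blood endothelial cells and mural cells for 5 chains, by edgeR's test of the difference itself. The adjusted p was 0.000609 for Lama3, 0.0269 for Lama4, 0.0203 for Lamb2, 0.0336 for Lamc1 and 3.44e-05 for Lamc3. Lamc3 was lower in fascia fibroblasts and higher in fascia mural cells, the 2 classes in which its change was called.

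Immune cells, used as a background class, held a signal of their own for Lamb2. It stood at 111.4 and 60.7 CPM in fascia immune cells, against 2.75 and 4.85 CPM in skin immune cells. Among fascia immune cells, those with C1qa and no T cell receptor complex gene held 190.4 and 157 CPM, and those with Cd3e, Cd3g or Nkg7 and no C1qa held 4.53 and 3.17 CPM. These subsets were chosen after the values were seen.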

How the results depend on the processing

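The count of trimers supplied moved with its limits. At a minimum of 10 CPM it was 2 in fascia endothelial cells and 11 in fascia mural cells, and at 50 CPM it was 2 in skin endothelial cells and 3 in fascia mural cells. With no immune criterion it was 2 in fascia endothelial cells. At 5 times the immune level it was 2 in fascia fibroblasts, 2 in skin endothelial cells and 0 in fascia mural cells. Fascia immune cells held Lamb2 at 111.4 and 60.7 CPM, far above skin immune cells. The immune criterion was therefore stricter for Lamb2 in fascia than in skin. With a stricter gate it was 4 in fascia mural cells, without laminin-423 and laminin-523, and 3 in skin mural cells. Mean shares of cells with a complete trimer followed depth. Thinned to 1000 UMIs, thinned to 4000 UMIs and unthinned, laminin-221 in fascia fibroblasts gave 14.4%, 75.8% and 90.4%, laminin-521 in fascia endothelial cells 0.454%, 7.82% and 42.0%, in fascia mural cells 1.59%, 22.6% and 53.1%, and in skin mural cells 3.10%, 19.1% and 30.6%. At 4000 UMIs and unthinned, laminin-221 in skin fibroblasts gave 27.8% and 48.7%, and laminin-521 in skin endothelial cells 6.41% and 23.4%.

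Chains called between tissues in fibroblasts numbered 7 with no filter, 5 with DESeq2, 4 with a replicate block and 2 to 6 with a library left out. In blood endothelial cells they numbered 4 with no filter (3624 of 18102 genes called) and 0 with a replicate block (1715 of 11096). They numbered 0 with a stricter gate (2185 of 10489) and 0 with a looser gate (2147 of 11460). The number moved with a library left out. In mural cells they numbered 3 with no filter (2206 of 18190 genes called) and 2 with a replicate block (1311 of 10850). They numbered 0 with a stricter gate (754 of 8737) and 3 with a looser gate (1745 of 11618). At a limit of 10% mitochondrial UMIs they numbered 2 (1658 of 10772), and the number moved with a library left out. Chosen after seeing the data, library totals alone gave 0 chains in blood endothelial cells (3185 of 11096 genes called). In mural cells they gave 3 (2560 of 10850). The replicate block with crossed numbers, also chosen after seeing the data, gave 4 in blood endothelial cells (3417 of 11096). The reported fits between tissues do not treat the replicate numbers as pairs. Deviations of same-numbered libraries from their tissue mean correlated at -0.0028 in fibroblasts, -0.148 in blood endothelial cells and -0.0419 in mural cells. With 2 libraries a tissue, each class gives a single value. It cannot show whether same-numbered libraries share an animal or a batch. Mural cells against endothelial cells gave 5 chains with a stricter gate, 4 higher and 1 lower (Lamb1), where 4434 of 11741 genes were called. With a library left out they gave 2 to 3, where 2786 to 4628 genes were called. Endothelial cells against fibroblasts then gave 4 chains, where 2819 to 4715 genes were called. Mural cells against fibroblasts gave 3 to 4, where 2411 to 4624 were. The test of unequal differences gave 2 chains without the library block (1458 of 13580 genes called) and 3 with a stricter gate (1607 of 12905). Its number of chains also moved with a library left out.

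Chains that changed sign were not called in the reported fits. Between tissues, fibroblast Lama5 became -0.22 with a looser gate and ran from -0.30 without skin replicate 1 to 0.80 without skin replicate 2. Mural Lamb1 ran from -0.51 without skin replicate 2 to 2.68 without skin replicate 1. With library totals alone endothelial Lamb2 became 0.011 and mural Lamc1 0.33. For endothelial cells against fibroblasts, Lama3 became -0.79 with DESeq2, -0.40 without the library block and -0.17 with a looser gate, and ran from -1.75 to 1.55 with a library left out. For mural cells against fibroblasts, Lamc3 became 0.036 with a looser gate, 0.024 with doublets kept and 0.032 at the 10% mitochondrial limit, and ran from -2.07 to 1.44 with a library left out, and Lama4 ran from -0.74 to 0.16. Mural over endothelial Lamc1 ran from -0.21 to 0.079, and keratinocyte over endothelial Lama2 became -1.10 with a looser gate. The cause was not tested.

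Counts over all genes also depended on the libraries. In the fibroblast comparison between tissues 2654 genes were called, against 4778 with no filter, 1271 when skin replicate 1 was left out, 272 when fascia replicate 1 was and 1083 when fascia replicate 2 was. In blood endothelial cells 2496 were called, against 1289 leaving out fascia replicate 1 and 1465 leaving out fascia replicate 2. In mural cells 1531 were called, against 754 with a stricter gate and 2560 with library totals alone. Leaving out skin replicate 1 gave 2697 there, fascia replicate 1 gave 663 and fascia replicate 2 gave 602. The test of unequal differences called 1994, against 3011 with no filter, 1203 leaving out skin replicate 1 and 1304 leaving out fascia replicate 1. Depth limits the skin mural values, with 47 cells in skin replicate 1.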
